A study of Mus musculus with 10 samples.

Results

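The 8 genes described here, Dusp1, Dusp2, Dusp4, Dusp5, Dusp6, Dusp10, Dusp14 and Dusp16, encode dual-specificity phosphatases that act on MAP kinases. They were chosen by name, as members of this enzyme family, from a deposited table of 34745 mouse genes, and all 8 were present and counted in every library. The samples were peritoneal lavage cells, the leukocytes and shed lining cells washed from the abdominal cavity, of mice made septic by cecal ligation and puncture (CLP), in which the cecum is tied and pierced so that gut bacteria leak out. There were 5 libraries labelled AX and 5 labelled NC. The series compares amlexanox with vehicle, so AX was read as amlexanox-treated CLP mice and NC as vehicle-treated CLP mice, although the labels spell out neither abbreviation. Both groups therefore carry the infection, and no mouse without CLP was included in the comparison. Strain, age, dose and sampling time are not stated in the labels. Libraries carry their replicate number, AX 6 to AX 10 and NC 1 to NC 5. The labels do not state that the libraries stem from different animals. If they do not, the p-values describe no more than the spread among these libraries, part of which may be technical.

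MAP kinases (ERK, JNK and p38) are switched on when upstream kinases phosphorylate a threonine and a nearby tyrosine, and the dual-specificity phosphatases switch them off by removing both phosphates. Several of these phosphatases are themselves transcribed in response to MAP kinase activity, so they form a negative feedback loop. In macrophages and neutrophils, Dusp1 in particular is known for limiting the duration of cytokine production after contact with bacterial products. Dusp1, Dusp2, Dusp4 and Dusp5 encode the nuclear, inducible enzymes, Dusp6 the cytoplasmic ERK-directed enzyme, Dusp10 and Dusp16 the enzymes that prefer JNK and p38, and Dusp14 a small enzyme that lacks the amino-terminal kinase-binding domain of the others.

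Total counts ran from 11080315 to 13492495 in AX libraries and from 10221170 to 13806885 in NC libraries. Levels are counts scaled to library size (CPM), which allow libraries to be compared for 1 gene but not genes with each other. Neutrophil markers such as S100a9 and Lcn2 were plentiful, their summed level lying between 7164 and 16131 CPM in AX and between 9900 and 20264 CPM in NC. Libraries AX 6 and NC 1 stood apart from the others. All 9 genes used as mesothelial markers, for the lining cells of the abdominal cavity, were counted in every library. Their summed level was 2347 CPM in AX 6 and between 114 and 385 CPM in AX 7 to AX 10. In NC it was 1225 CPM in NC 1 and between 132 and 304 CPM in NC 2 to NC 5. The same 2 libraries also had the highest sums of 8 stromal markers such as Dcn and Sparc, of 5 red blood cell markers and of 7 gut epithelial markers. The pan-leukocyte gene Ptprc was at 19.4 CPM in AX 8, against 341 to 991 CPM in the other AX libraries and 403 to 1138 CPM in NC. This value is of a single gene, and the summed neutrophil markers of AX 8 were at 12701 CPM, the AX median. The reason for the low Ptprc value was not tested. In such bulk RNA, fewer cells of a type and less RNA per cell cannot be told apart.

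No difference between AX and NC was detected for any of the 8 phosphatase genes. In edgeR's quasi-likelihood test 0 of the 8 had an adjusted p under 0.05, and the adjusted p was 1 for each, where the test called 0% of the 12264 genes tested. At an unadjusted p under 0.05 there were again 0 of 8 members, against 0.921% of all genes (113 genes), and Dusp2, Dusp5, Dusp6 and Dusp10 came under it in some alternatives. The AX and NC values overlapped for all 8 members, and 0.0978% of all genes (12 genes) had no overlap. The fitted fold change was above 0 for 6 members and below 0 for 2, Dusp2 and Dusp16, with a median log2 fold change of 0.46, against 0.02 and 53.6% above 0 over all genes tested. That balance rested on AX 6. Without AX 6 the fold change was above 0 for 3 members and below 0 for 5, with a median of -0.07, against -0.02 for all genes. Without AX 6 and NC 1 it was above 0 for 4 and below 0 for 4, with a median of 0.02, against 0.01 for all genes.

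Per length, Dusp1 was the most abundant transcript of the family. On the deposited FPKM scale, which divides counts by depth and by a gene length, Dusp1 averaged 386 ± 135 FPKM over the 10 libraries (SD), ranked first of the 8 in each library and made up 57.2% of the family's summed FPKM. Dusp6 at 85.7 ± 47.0, Dusp2 at 74.8 ± 18.5, Dusp5 at 66.2 ± 17.1 and Dusp16 at 58.0 ± 12.9 FPKM followed. These 4 exchanged places between ranks 2 and 5 from library to library, so their order did not exceed their spread. Dusp10 came sixth in every library at 3.70 ± 4.76 FPKM. Dusp14 at 0.752 ± 0.767 FPKM and Dusp4 at 0.477 ± 0.417 FPKM changed places with each other on this scale. Among the 12264 genes tested, Dusp1 stood at rank 120 by mean FPKM, and Dusp4 at rank 10742. The places of Dusp16 and Dusp14 depended on the length used. The length contained in the FPKM values is 12979 bases for Dusp16, whereas its merged exons in GENCODE M21 cover 7798 bases and its longest transcript 5104 bases. With merged exons as the length, Dusp16 averaged 96.5 ± 21.5 CPM per kb (SD) and stood second by mean after Dusp1 at 600.1 CPM per kb. Dusp2 followed at 88.7 ± 21.9, Dusp6 at 76.5 and Dusp5 at 66.2 CPM per kb. Between libraries Dusp16 ranged over ranks 2 to 4 and Dusp2 over ranks 2 to 5, so this order did not exceed the spread either. For Dusp14 the length is 4538 bases in the FPKM values and 1945 bases in merged exons, on which it averaged 1.75 CPM per kb and ranked above Dusp4, at 0.477 CPM per kb, in all 10 libraries. The length in the FPKM values also exceeds the listed span of Dusp1, at 5142 against 2930 bases, and of Dusp2, at 2373 against 2218 bases, which lowers the FPKM of these genes.

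**Figure D1:**
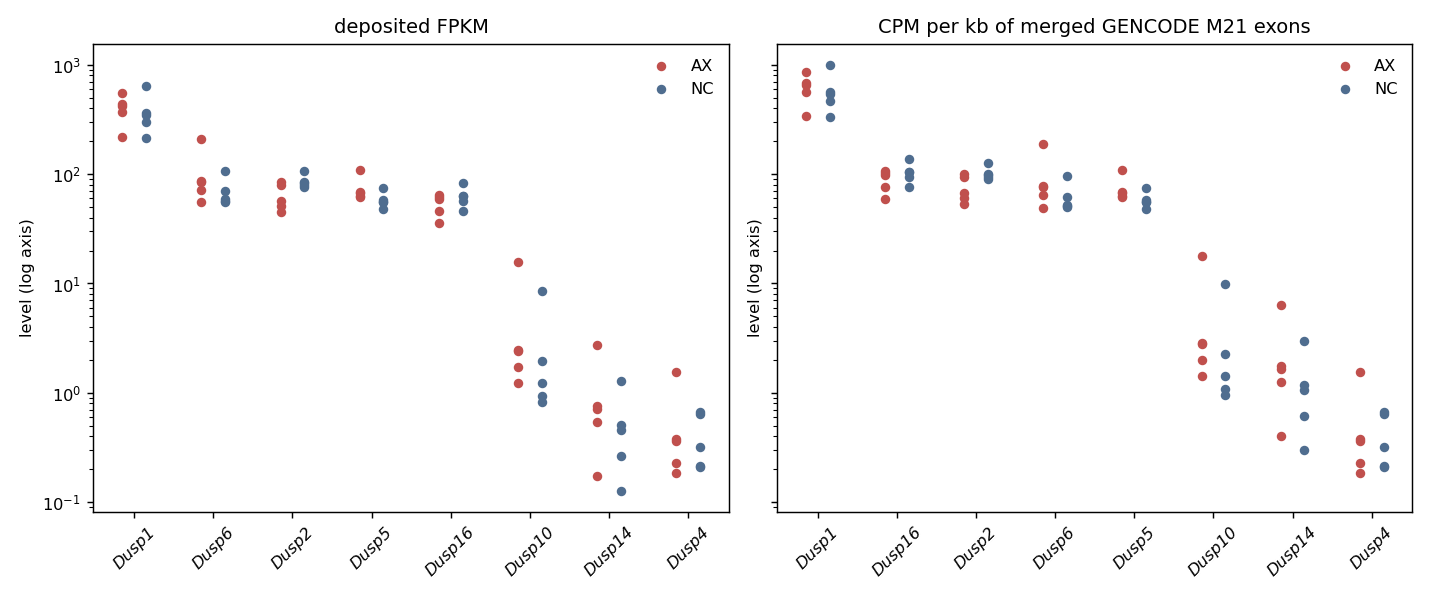
Levels of the 8 genes per length in each library, AX left of NC, on log axes: deposited FPKM (left panel) and CPM per kb of merged GENCODE M21 exons (right panel), each ordered by its mean. Dusp1 lies above all others in every library, and a middle group of Dusp2, Dusp5, Dusp6 and Dusp16 overlaps. By mean, Dusp16 moves from rank 5 to rank 2 when merged exons are used.

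Dusp1 encodes the best-known member, induced by stress, growth factors and glucocorticoids, and is listed on the minus strand at chr17:26505590-26508519 of mm10. It had 2852, 2173, 1886, 2253 and 1119 CPM in AX 6 to AX 10, against 1867, 1791, 3279, 1557 and 1093 CPM in NC 1 to NC 5. The highest value was in an NC library, NC 3, the second highest was in AX 6, and NC 5 and AX 10 were the lowest, so the groups overlapped over nearly their whole range. The means were 2057 ± 631 CPM in AX and 1917 ± 819 CPM in NC (SD, n = 5 each). The edgeR log2 fold change was 0.14 ± 0.35 (SE), with a 95% interval from -0.62 to 0.90, and an exact two-sided permutation test on log2(CPM + 0.5) gave p = 0.675, where the smallest p that 252 arrangements allow is 0.00794. Without AX 6 the log2 fold change was -0.04, and without NC 3 it was 0.50. The counts behind these values ran from 12596 to 38740 a library.

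The promoter of Dusp1 is shown because Dusp1, the most abundant transcript of the family, was also the member whose window held a full cAMP response element (CRE), the site bound by CREB and related factors. The window runs from 250 bases before to 50 bases after the RefSeq start site, on GRCm38.p6, at chr17:26508423-26508722 on the minus strand. Capitals mark each TGACG, the core of the CRE, searched on both strands, including the palindrome TGACGTCA, which holds this core once on each strand.
Dusp1: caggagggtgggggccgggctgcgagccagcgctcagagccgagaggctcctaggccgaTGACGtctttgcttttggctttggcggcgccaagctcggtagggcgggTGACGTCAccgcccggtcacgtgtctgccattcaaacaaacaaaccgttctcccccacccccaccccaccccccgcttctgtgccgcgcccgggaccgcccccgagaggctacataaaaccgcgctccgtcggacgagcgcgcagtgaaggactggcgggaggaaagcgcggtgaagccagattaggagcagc
The full element TGACGTCA starts 143 bases before the start site. It occurred in 1.79% of the 32851 mouse promoter windows of the same length, and in Dusp1 alone of the 7 members with a window. The core TGACG occurred in 20.8% of all windows and in those of Dusp1, Dusp2, Dusp5 and Dusp16. The AP-1 motif TGANTCA, found in 7.81% of all windows, was in none of the 7. The E-box CACGTG, found in 7.15%, was in those of Dusp1 and Dusp2. These matches describe letters in a window and are no measure of binding.

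Dusp2, listed on the plus strand at chr2:127336159-127338376, encodes a nuclear phosphatase found mainly in activated leukocytes. It had 108, 189, 200.3, 136 and 121 CPM in AX 6 to AX 10, against 198, 189.5, 254, 181 and 200.1 CPM in NC 1 to NC 5. AX 6, AX 9 and AX 10 lay below all 5 NC libraries, while AX 7 and AX 8 lay among them, so the groups overlapped. The means were 151 ± 41.3 CPM in AX and 204 ± 28.5 CPM in NC (SD, n = 5 each). The log2 fold change from edgeR was -0.38 ± 0.24, with a 95% interval from -0.90 to 0.13, and the exact permutation test gave p = 0.0794. This was the smallest permutation p of the 8 members. It passed 0.05 without AX 7 (exact permutation p = 0.0397) and without AX 8 (p = 0.0159), but not when any other library was left out. With AX 6 and NC 1 left out together the means were 161 ± 38.8 CPM in AX and 206 ± 32.7 CPM in NC (SD, n = 4 each).

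Dusp4, listed on the plus strand at chr8:34807297-34819894, encodes a nuclear phosphatase closely related to that of Dusp1. It was scarcely detected, with 6 to 54 counts a library. It had 4.27, 0.505, 0.993, 1.04 and 0.626 CPM in AX 6 to AX 10, against 1.76, 0.579, 0.593, 0.880 and 1.82 CPM in NC 1 to NC 5. AX 6 was high, NC 1 and NC 5 came next, and the other 7 libraries lay close together. The means were 1.49 ± 1.57 CPM in AX and 1.13 ± 0.619 CPM in NC (SD, n = 5 each). In edgeR the log2 fold change was 0.52 ± 0.65, and the exact permutation test gave p = 0.833. Without AX 6 the log2 fold change was -0.45. The 95% interval ran from -0.92 to 1.95, and without AX 6 from -1.52 to 0.61.

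Dusp5, listed on the plus strand at chr19:53529109-53542431, encodes a nuclear phosphatase directed at ERK, which it also anchors in the nucleus. It had 271, 169, 153, 165 and 156 CPM in AX 6 to AX 10, against 138, 143, 186, 118 and 136 CPM in NC 1 to NC 5. All 5 AX libraries lay above the NC median of 138 CPM, but NC 3 lay above 4 of the AX libraries, so the groups overlapped. The means were 183 ± 49.5 CPM in AX and 144 ± 25.2 CPM in NC (SD, n = 5 each). The edgeR log2 fold change was 0.40 ± 0.24, with a 95% interval from -0.12 to 0.92, and the exact permutation test gave p = 0.111. Without AX 6 the log2 fold change was 0.18, and without NC 3 the exact permutation p was 0.0238. When AX 6 and NC 1 were left out the AX libraries lay close together, with means of 161 ± 7.53 CPM for AX and 146 ± 28.8 CPM for NC (SD, n = 4 each).

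The promoter window of Dusp5 is shown because it was the only one of the 7 to hold a CArG box, the site of serum response factor, a classical end point of ERK signalling. It lies on the plus strand at chr19:53528895-53529194. Capitals mark 2 adjoining CArG boxes, which start 82 and 72 bases before the start site, and a TGACG core on the opposite strand, printed here as CGTCA, whose first printed base lies 55 bases before it.
Dusp5: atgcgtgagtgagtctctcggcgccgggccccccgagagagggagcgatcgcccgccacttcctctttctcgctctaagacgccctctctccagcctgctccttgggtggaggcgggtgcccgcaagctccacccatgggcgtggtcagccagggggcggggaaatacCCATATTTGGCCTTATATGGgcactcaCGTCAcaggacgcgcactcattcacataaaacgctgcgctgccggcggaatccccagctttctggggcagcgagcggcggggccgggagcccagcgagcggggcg
A CArG box occurred in 1.63% of all promoter windows. The single GC box of this window starts 96 bases before the start site.

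Dusp6, at chr10:99263231-99267488 on the plus strand, encodes the cytoplasmic phosphatase directed at ERK and is a common transcriptional readout of ERK activity. It had 589, 237, 201, 154 and 242 CPM in AX 6 to AX 10, against 298, 159, 195, 156 and 165 CPM in NC 1 to NC 5. AX 6 was the highest library by a wide margin and NC 1 the second highest, and the lowest value was also in an AX library, AX 9. The means were 284.5 ± 174 CPM in AX and 195 ± 60.0 CPM in NC (SD, n = 5 each). The log2 fold change from edgeR was 0.65 ± 0.38, with a 95% interval from -0.17 to 1.48, and the exact permutation test gave p = 0.325. Without AX 6 it was 0.16 ± 0.24. Without AX 6 and NC 1 it was 0.30 ± 0.22, with means of 208 ± 40.5 CPM in AX and 169 ± 17.9 CPM in NC (SD, n = 4 each). The promoter window of Dusp6, at chr10:99262981-99263280, held none of the 7 motifs searched, among them the GC box GGGCGG, which the other 6 windows held and which occurred in 35.7% of all windows.

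**Figure D2:**
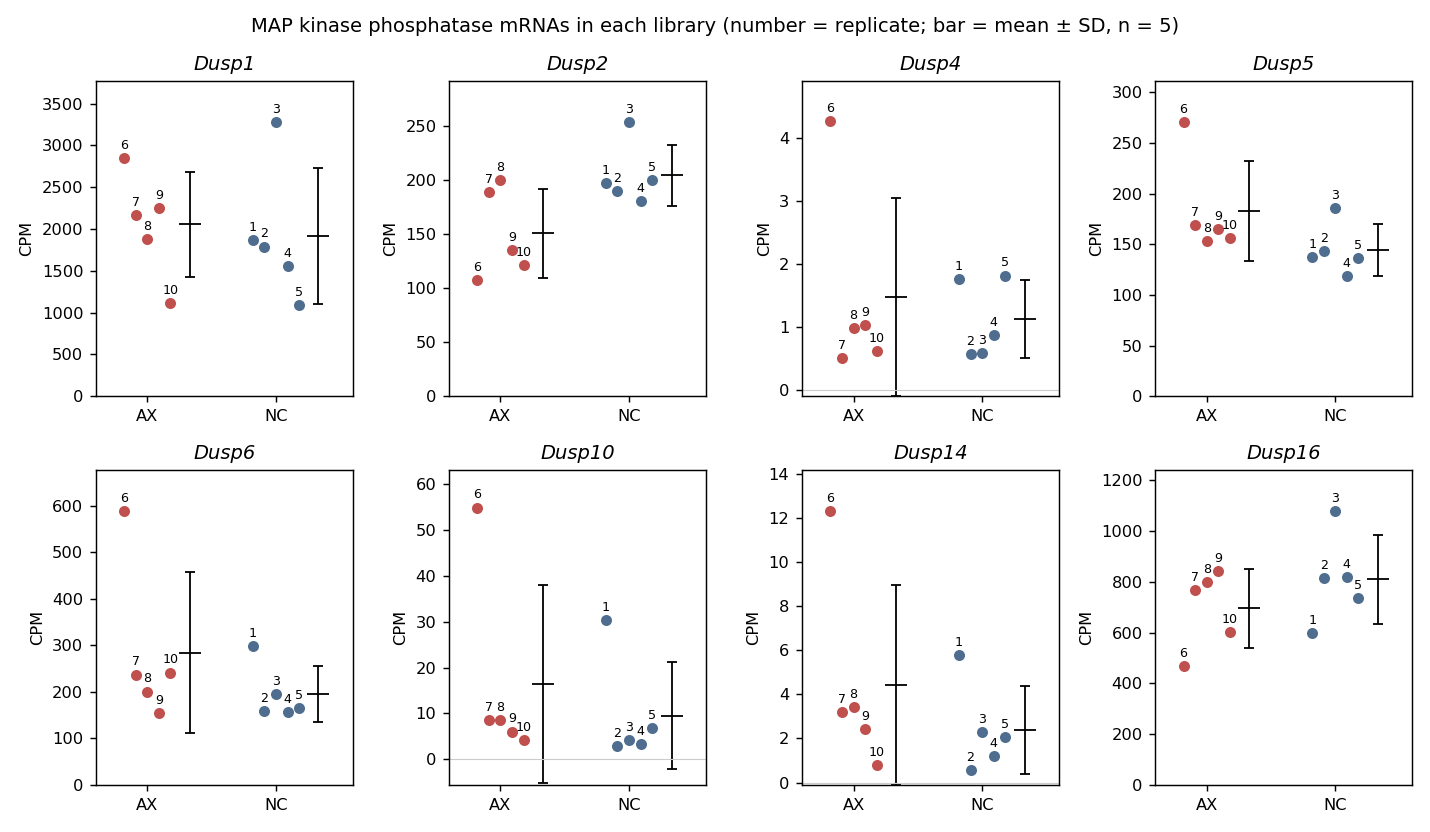
CPM of each gene in each library (linear axes; points numbered by replicate; bars, mean ± SD of 5 libraries), AX left of NC. The groups overlap in all 8 panels, AX 6 and NC 1 are the 2 highest libraries for Dusp6, Dusp10 and Dusp14, and AX 6 is the lowest for Dusp2 and Dusp16.

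Dusp16, listed on the minus strand at chr6:134715468-134792625, encodes a phosphatase that shuttles between nucleus and cytoplasm and acts mainly on JNK and p38. It had 466.5, 769, 797, 840.2 and 601 CPM in AX 6 to AX 10, against 599, 815, 1079, 818 and 737 CPM in NC 1 to NC 5. AX 6 was the lowest library, NC 1 and AX 10 came next at nearly equal levels, and NC 3 was the highest. The means were 695 ± 157 CPM in AX and 809.5 ± 175 CPM in NC (SD, n = 5 each). In edgeR the log2 fold change was -0.19 ± 0.24, with a 95% interval from -0.72 to 0.34, and the exact permutation test gave p = 0.357. Without NC 3 the log2 fold change was -0.01.

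Dusp10, the other JNK- and p38-directed member, is listed on the plus strand at chr1:184013302-184075636. It had 54.8, 8.68, 8.48, 6.08 and 4.30 CPM in AX 6 to AX 10, against 30.3, 2.90, 4.32, 3.28 and 6.94 CPM in NC 1 to NC 5. AX 6 and NC 1 stood far above the other 8 libraries, which overlapped. The means were 16.5 ± 21.5 CPM in AX and 9.55 ± 11.7 CPM in NC (SD, n = 5 each), so in each group the SD exceeded the mean. The edgeR log2 fold change was 0.98 ± 0.86, with a 95% interval from -0.90 to 2.87, and the exact permutation test gave p = 0.452. It was -0.35 without AX 6 and 1.98 without NC 1. Without both libraries it was 0.65 ± 0.38, with means of 6.89 ± 2.09 CPM in AX and 4.36 ± 1.82 CPM in NC (SD, n = 4 each). An RNA on the opposite strand, 1700056E22Rik, overlaps Dusp10 and averaged 0.220 CPM. Whether counting used strand is not given in the sources used here.

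Dusp14, the small member, is listed on the minus strand at chr11:84048041-84069261 and is known for restraining T cell receptor signalling. It had 12.3, 3.20, 3.43, 2.45 and 0.783 CPM in AX 6 to AX 10, against 5.77, 0.579, 2.29, 1.20 and 2.08 CPM in NC 1 to NC 5. As for Dusp10, AX 6 was highest, NC 1 second and NC 2 lowest. The means were 4.44 ± 4.54 CPM in AX and 2.38 ± 2.02 CPM in NC (SD, n = 5 each). The log2 fold change from edgeR was 1.03 ± 0.74, with a 95% interval from -0.60 to 2.67, and the exact permutation test gave p = 0.381. It was 0.12 without AX 6 and 1.56 without NC 1. The counts ran from 8 to 156 a library.

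**Figure D3:**
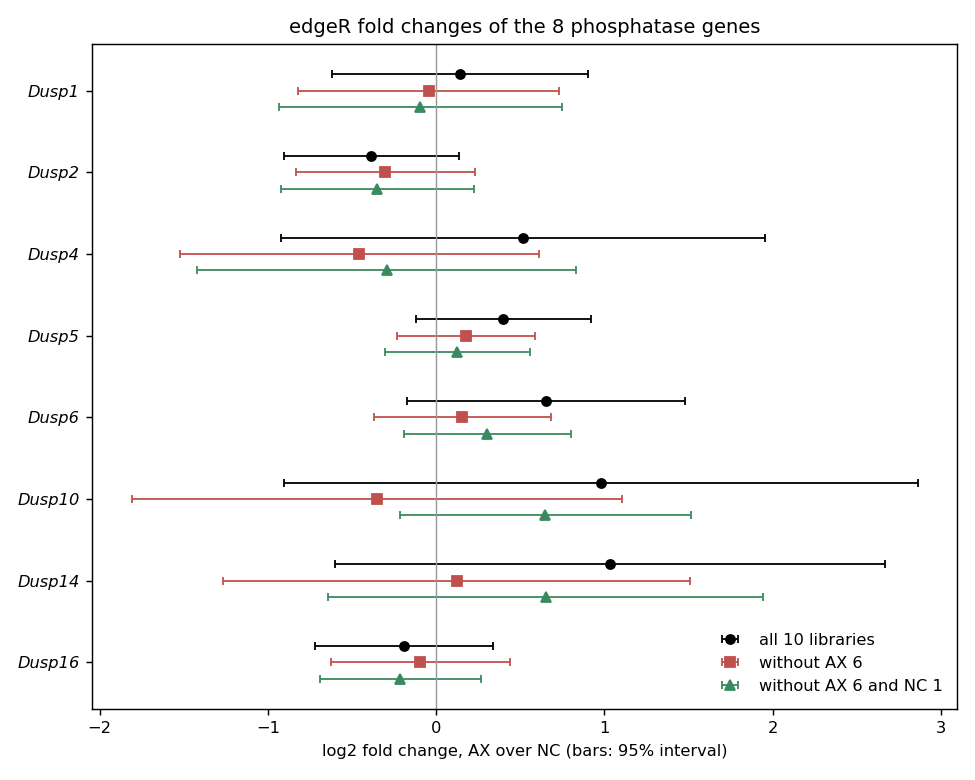
edgeR log2 fold change of AX over NC for each gene with its 95% interval, from all 10 libraries, without AX 6, and without AX 6 and NC 1. Every interval includes 0, and the estimates of Dusp1, Dusp4 and Dusp10 change sign without AX 6.

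Pairs of members differed in how closely they varied together between libraries. Of 28 pairs, 6 had a Pearson correlation of log2(CPM + 0.5) with a permutation p under 0.05 after Benjamini-Hochberg adjustment over the pairs. The closest was Dusp10 with Dusp14, at r = 0.94 (permutation p = 3e-05, adjusted 0.00084) and rho = 0.94 (p = 0.00023, adjusted 0.00644) over 10 libraries. Without its outermost libraries, AX 6 and NC 1, it had r = 0.87 over 8 libraries (permutation p = 0.00642). Within AX r was 0.95 and within NC 0.92 (5 libraries each), but these values include AX 6 and NC 1. Dusp6 with Dusp10 (r = 0.88, permutation p = 0.00167, adjusted 0.0234; rho = 0.68, adjusted 0.249) came down to r = 0.39 without those libraries, so that relation rested on them. Dusp6 with Dusp14 (r = 0.79, permutation p = 0.00759, adjusted 0.0425; rho = 0.58, adjusted 0.356) came down to r = 0.20. Dusp6 and Dusp16 varied inversely (r = -0.81, permutation p = 0.00483, adjusted 0.0386, and rho = -0.82, adjusted 0.0562), with r = -0.37 without the same libraries. With TMM scaling in place of library totals this pair did not pass (r = -0.51, adjusted permutation p = 0.241). Dusp4 correlated with Dusp10 (r = 0.84, permutation p = 0.00551, adjusted 0.0386; rho = 0.54, adjusted 0.399) and with Dusp14 (r = 0.77, permutation p = 0.00933, adjusted 0.0435; rho = 0.52, adjusted 0.414). Without AX 6 and NC 5, the outermost libraries for Dusp4, these were r = 0.75 and r = 0.62, with NC 1 still included. Without AX 6 alone they were r = 0.62 and r = 0.505 (adjusted permutation p = 0.396 and 0.433). Dusp1 correlated with Dusp5 at r = 0.67 (permutation p = 0.0315, adjusted 0.0803; rho = 0.82, adjusted 0.0562), which did not pass the adjustment. With AX 6 alone left out, 1 pair of 28 passed, Dusp10 with Dusp14.

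**Figure D4:**
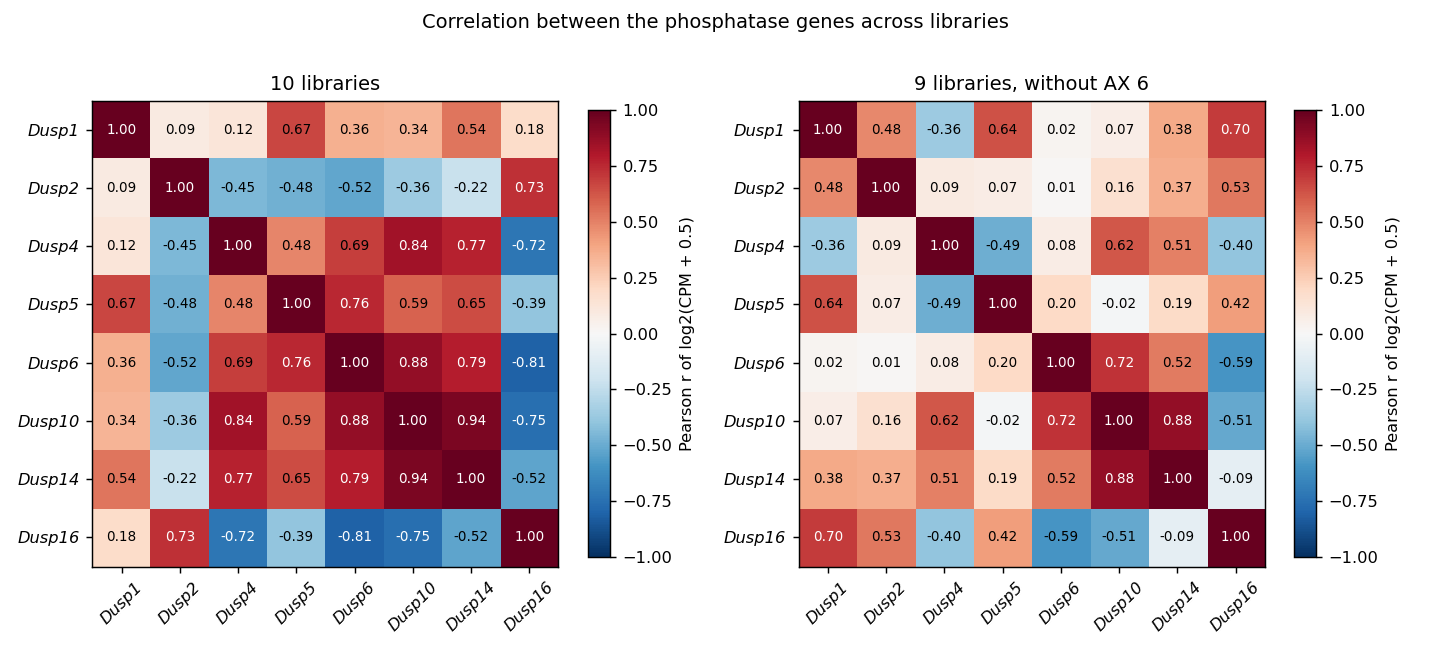
Pearson r between the genes on log2(CPM + 0.5), over 10 libraries (left) and over 9 libraries without AX 6 (right). The block of high values among Dusp4, Dusp6, Dusp10 and Dusp14 on the left shrinks to Dusp10 with Dusp14 (r = 0.88) and Dusp6 with Dusp10 (r = 0.72) on the right.

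The promoter windows of Dusp10 and Dusp14 are shown because these transcripts varied together most closely. They lie at chr1:184034131-184034430 on the plus strand and at chr11:84068308-84068607 on the minus strand. Capitals mark the GC box GGGCGG on either strand, the site of SP factors, with 3 matches in Dusp10 and 1 in Dusp14, and in Dusp14 also the STAT motif TTCNNNGAA, which starts 200 bases before the start site.
Dusp10: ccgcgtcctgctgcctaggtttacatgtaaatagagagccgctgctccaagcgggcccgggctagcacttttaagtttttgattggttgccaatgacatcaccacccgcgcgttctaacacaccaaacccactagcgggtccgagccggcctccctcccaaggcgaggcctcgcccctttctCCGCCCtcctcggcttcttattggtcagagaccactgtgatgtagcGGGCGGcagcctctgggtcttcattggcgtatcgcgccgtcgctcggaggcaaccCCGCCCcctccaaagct
Dusp14: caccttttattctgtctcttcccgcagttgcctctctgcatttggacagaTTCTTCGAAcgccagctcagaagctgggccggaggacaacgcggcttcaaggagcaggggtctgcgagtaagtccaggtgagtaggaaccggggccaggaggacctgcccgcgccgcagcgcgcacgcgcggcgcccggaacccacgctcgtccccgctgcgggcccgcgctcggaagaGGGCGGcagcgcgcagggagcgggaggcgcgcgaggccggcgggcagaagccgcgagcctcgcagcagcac
Of the motifs searched, the GC box was the only one found in both windows. It was in 6 of the 7 member windows and in 35.7% of all windows, so it is not particular to this pair. The STAT motif occurred in 8.30% of all windows and among the members in Dusp14 alone. Each start site is that of RefSeq and lies inside the span that the deposited table lists for the gene. The Dusp10 window begins at 184034131, far downstream of the listed start of this plus-strand gene at 184013302. For Dusp14, on the minus strand, the window ends at 84068607 and the listed span at 84069261. Other start sites of these genes were not searched.

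The libraries with the most Dusp10, Dusp14 and Dusp6 RNA were those with the highest mesothelial and stromal marker sums. Over 96 relations between the 8 members and 12 summed marker lists, a comparison chosen after the values were seen, 9 had an adjusted permutation p under 0.05. Against the stromal sum, r was 0.96 for Dusp10 (permutation p = 0.00012, adjusted 0.00576; rho = 0.94, adjusted 0.013) and 0.94 for Dusp14 (permutation p = 0.00007, adjusted 0.00576; rho = 0.94, adjusted 0.013). When AX 6 and NC 1 were left out these were r = 0.79 (permutation p = 0.023) and r = 0.81 (p = 0.0148) over 8 libraries. For Dusp6 the stromal r was 0.91 (permutation p = 0.00094, adjusted 0.018; rho = 0.72, adjusted 0.229) and 0.58 without these libraries. Against the mesothelial sum, r was 0.91 for Dusp10 (permutation p = 0.00222, adjusted 0.0266, and rho = 0.71, adjusted 0.238). For Dusp14 it was 0.91 (permutation p = 0.00033, adjusted 0.0106, and rho = 0.79, adjusted 0.202). Without AX 6 and NC 1 these were r = 0.39 and 0.72. Dusp6 did not pass the adjustment against the mesothelial sum (r = 0.83, permutation p = 0.00605, adjusted 0.0581, and rho = 0.44, adjusted 0.491). Without AX 6 and NC 1 its mesothelial r was 0.085. The red blood cell sum gave r = 0.87 with Dusp10 (permutation p = 0.00081, adjusted 0.018), 0.87 with Dusp14 (permutation p = 0.00119, adjusted 0.019) and 0.80 with Dusp6 (permutation p = 0.00296, adjusted 0.0316), with adjusted values of rho of 0.202, 0.229 and 0.229. These were, without AX 6 and NC 4, the outermost libraries for that sum, r = 0.75, 0.78 and 0.61 (permutation p = 0.0248, 0.0248 and 0.115). That check kept NC 1, which had the second highest red blood cell sum, at 955 CPM. The red blood cell relations without both AX 6 and NC 1 were not examined. Dusp6 ran against the NK cell sum (r = -0.82, permutation p = 0.00195, adjusted 0.0266, and rho = -0.78, adjusted 0.202). Without AX 6 and NC 3 this was r = -0.90, with NC 1 still included. The NK cell sum was only 2.37 to 13.3 CPM in AX and 3.64 to 14.2 CPM in NC. The stromal sums were 2633 CPM in AX 6 and between 329 and 735 CPM in AX 7 to AX 10. In NC they were 1382 CPM in NC 1 and between 230.2 and 514 CPM in NC 2 to NC 5. Dcn made up most of the sum in AX 6 and NC 1, at 2284 and 1035 CPM. Its mean was 753 CPM in AX and 416 CPM in NC, against 58.1 and 43.1 CPM for Sparc, the next highest marker. The stromal relations therefore mainly describe Dcn, and the other stromal markers were not examined apart from it. All 9 mesothelial and all 8 stromal markers had fitted fold changes above 0, with medians of 1.03 and 0.55 on the log2 scale and 0 calls. Without AX 6 the numbers above 0 were 1 of 9 and 4 of 8, and with AX 6 and NC 1 both left out they were 8 of 9 and 8 of 8, with medians of 0.28 and 0.49 and 0 calls. Keratin genes were a large part of the mesothelial sum. Krt8, Krt18 and Krt19 reached 548, 492 and 270 CPM in AX and 463, 161 and 273 CPM in NC. Msln had 749 CPM in AX 6 and 234 CPM in NC 1. Gut epithelial markers summed to 482 CPM in AX 6 and 1095 CPM in NC 1. Whether the keratin RNA came from lining or gut epithelial cells was not tested. The part of lining, stromal and gut epithelial RNA in the levels of these phosphatases was not tested.

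**Figure D5:**
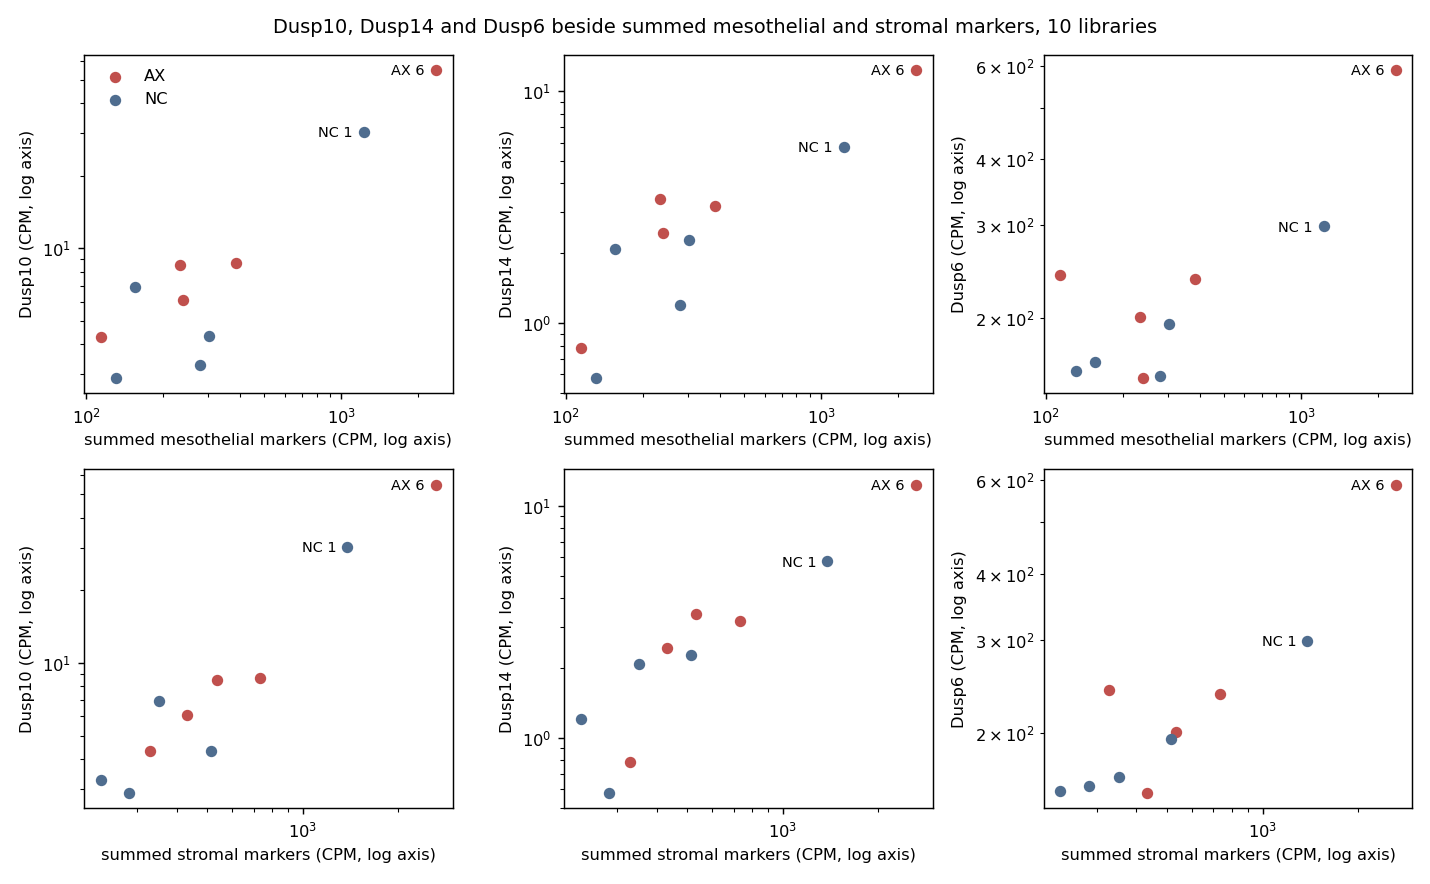
Dusp10, Dusp14 and Dusp6 (CPM, log axes) against the summed CPM of 9 mesothelial markers (top) and 8 stromal markers (bottom), each point a library, AX and NC in different colours. AX 6 and NC 1 lie at the upper right of every panel. Among the other 8 libraries Dusp10 and Dusp14 still increase with the stromal sum, in which Dcn has by far the highest mean.

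The spread between libraries was unequal within the family, and for 7 of the 8 members it was smaller without AX 6 and NC 1. The coefficient of variation over 10 libraries was 129% for Dusp10, 102% for Dusp14, 87.5% for Dusp4, 54.9% for Dusp6, 34.9% for Dusp1, 25.8% for Dusp5, 24.7% for Dusp2 and 22.3% for Dusp16. Among genes with a mean within 2-fold of theirs, 97.5% varied less than Dusp10, 92.0% less than Dusp6 and 91.3% less than Dusp14, but 35.9% less than Dusp16 and 46.5% less than Dusp2. Over the 8 libraries without AX 6 and NC 1 the coefficient was 40.2% for Dusp10, 53.1% for Dusp14, 19.1% for Dusp6 and 13.7% for Dusp5. Dusp1, highest in NC 3, was the exception at 37.3%, and Dusp16 had 16.5%.

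For the 5 members with a mean of at least 20 CPM, the genes with the most similar pattern over the 10 libraries were sought among 5643 genes. Dusp1 varied most like Rab11fip1 (r = 0.95), the NF-kappaB inhibitor gene Nfkbia (r = 0.95) and the related Nfkbiz (r = 0.90), and these held at r = 0.89, 0.89 and 0.86 without NC 3 and NC 5. Nfkbia had 2525, 2432, 2130, 2319 and 1802 CPM in AX 6 to AX 10, against 2398, 2291, 2958, 2232 and 1811 CPM in NC 1 to NC 5, so its highest and lowest libraries were NC 3 and AX 10, with NC 5 next to AX 10. Dusp2 varied most like Mapk13, which encodes p38-delta (r = 0.90), the clathrin adaptor gene Ap2a1 (r = 0.90) and Nab2, a corepressor of EGR proteins (r = 0.88). Without AX 6 and AX 10 these were r = 0.72, 0.77 and 0.84. Dusp6 varied most like Fos (r = 0.95), Trim35 (r = 0.92) and Tuba4a (r = 0.91), with r = 0.63, 0.65 and 0.55 without AX 6 and NC 1. Dusp5 varied most like Tuba4a (r = 0.89), the collagen chaperone gene Serpinh1 (r = 0.84) and Gas6 (r = 0.82), but without AX 6 and NC 4 these were r = 0.05, 0.17 and 0.29. Dusp16 varied most like Tmco6 (r = 0.95), Spata13 (r = 0.94) and Vasp, an actin regulator (r = 0.94), with r = 0.87, 0.75 and 0.75 without AX 6 and NC 3. These are descriptions over the same libraries that were searched, and no p-value is attached to them.

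Among relatives outside the 8, Dusp7, Dusp8 and Dusp9 were highest in AX 6 and NC 1, while Dusp3 and Dusp11 were not. Dusp8, a JNK- and p38-directed phosphatase, had 34.6, 5.14, 10.02, 3.71 and 2.11 CPM in AX 6 to AX 10, against 21.1, 1.81, 3.64, 2.72 and 3.04 CPM in NC 1 to NC 5. Its edgeR log2 fold change was 0.99 ± 0.87. The ERK-directed Dusp9, named after its values were seen, was too low to be tested: it reached 2.29 CPM in AX 6, 0.881 CPM in NC 1 and no more than 0.253 CPM among the other AX and 0.339 CPM among the other NC libraries. The ERK-directed Dusp7 was also highest in these libraries, at 54.2 CPM in AX 6 and between 33.1 and 48.5 CPM in AX 7 to AX 10, against 53.9 CPM in NC 1 and between 27.2 and 41.5 CPM in NC 2 to NC 5. Of 15 small atypical phosphatases, including Dusp14, 8 were tested, 5 with a fold change above 0 and 3 below, with 0 calls. Dusp3, a small phosphatase that acts on ERK and JNK, averaged 63.3 ± 9.44 CPM in AX and 83.4 ± 19.1 CPM in NC (SD, n = 5 each), with a log2 fold change of -0.34 ± 0.19. It was highest in NC 2, at 106.5 CPM. Dusp11, named after its values were seen, was lowest in AX 6, at 116 CPM. It had 122 to 166 CPM in AX 7 to AX 10 and 125 to 174 CPM in NC.

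The kinases that these phosphatases act on, and the kinases around them, gave 0 calls in edgeR in every list. Of 13 MAP kinases 10 were tested, 5 with a fold change above 0 and 5 below, with a median log2 fold change of 0.07 against 0.02 over all genes. Mapk13, with the smallest p of the list, averaged 40.1 ± 9.04 CPM in AX and 51.6 ± 9.99 CPM in NC (SD, n = 5 each), a log2 fold change of -0.31 ± 0.23. Of 29 upstream kinases 26 were tested, 16 above 0 and 10 below, with a median of 0.03. The NF-kappaB-inducing kinase gene Map3k14 was the only gene of the 10 pathway lists with an unadjusted edgeR p under 0.05, and its adjusted p was 1. Its level was 19.5 ± 4.22 CPM in AX and 14.2 ± 4.08 CPM in NC (SD, n = 5 each). Of 11 kinases activated by MAP kinases 10 were tested, 3 above 0 and 7 below, with a median of -0.18. Among 8 other phosphatases that act on MAP kinases 6 were tested, 3 above 0 and 3 below, with a median of 0.01. The haematopoietic tyrosine phosphatase gene Ptpn7 averaged 56.9 ± 41.3 CPM in AX and 84.5 ± 35.2 CPM in NC (SD, n = 5 each).

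The balance of genes downstream of the same kinases also changed when AX 6 was left out. Of 23 ERK feedback and response genes 22 were tested, 15 above 0 and 7 below, with a median log2 fold change of 0.20, but 9 above and 13 below with a median of -0.12 without AX 6, and 12 above and 10 below with a median of 0.09 without AX 6 and NC 1. Fos had 1014, 203, 154, 117 and 120.0 CPM in AX 6 to AX 10, against 301, 125, 189, 102 and 108 CPM in NC 1 to NC 5. Fosb had 486 CPM in AX 6 and between 4.85 and 15.7 CPM in AX 7 to AX 10, against 86.2 CPM in NC 1 and between 2.68 and 19.4 CPM in NC 2 to NC 5. Both were highest in AX 6 and NC 1, the libraries with the most Dusp6. All 12 mRNAs controlled through p38 and its substrate kinase MK2 were tested, 5 above 0 and 7 below, with a median of -0.02, and without AX 6 all 12 were below 0 with a median of -0.32 and 0 calls. Without AX 6 and NC 1 the split was 2 above and 10 below, with a median of -0.15. Over all genes tested, 53.6% were above 0 with all libraries, 47% without AX 6 and 50.8% without AX 6 and NC 1. The medians of all genes were 0.02, -0.02 and 0.005. The fit without AX 6 still held NC 1. Cxcl1, a neutrophil-attracting chemokine gene in this list, had 7377 CPM in AX 6 and between 164 and 591 CPM in AX 7 to AX 10, against 2459 CPM in NC 1 and between 248 and 435 CPM in NC 2 to NC 5. Ptgs2, which encodes the inducible cyclooxygenase, had 9236 CPM in AX 6 and between 227 and 1032 CPM in AX 7 to AX 10, against 3338 CPM in NC 1 and between 201 and 899 CPM in NC 2 to NC 5.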

How the data were processed

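Poly(A) RNA of peritoneal lavage cells was sequenced from 5 AX and 5 NC samples. Per the submitters' processing notes, the authors used HISAT2 2.0.4 and mouse build mm10. How reads were counted, on which annotation release and with which strand setting is not given in these sources. The deposited table holds whole-number counts per gene, which the authors did not normalise, and FPKM values. Per gene and library, the deposited FPKM is that count over a gene length and over the column total, within a relative gap of 1.69e-05 for 7639 genes. Library totals ran from 10221170 to 13806885 counts. No pair of libraries agreed within sampling noise, the lowest chi-square per degree of freedom being 41.8, so each library was treated as a sample.

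The members and all gene lists were chosen with earlier results of these data known. Counts were fitted in R 4.3.3 with edgeR 4.0.16 (filterByExpr, TMM, quasi-likelihood F test, two-sided, Benjamini-Hochberg adjustment over all 12264 genes tested, threshold 0.05), without covariates. CPM are counts scaled to library totals. Each SE was derived from the F statistic and the fitted fold change. Group means of log2(CPM + 0.5) were compared by exact permutation over samples, and correlations used 100000 permutations. Motifs were searched in RefSeq promoter windows (GRCm38.p6), which matched 7 of the 8 members by symbol. Permutations and plots were made in Python 3.11.15 (scipy 1.17.1, matplotlib 3.10.9).

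Named were all 8 members, up to 4 tested genes of smallest p from each pathway list, and for each member with a mean of at least 20 CPM the 3 genes most like it, leaving out predicted and overlapping genes. Markers were named as the highest of a list. Dusp9, Dusp11, Ptprc and Rnf24 were picked once their values had been seen. The alternatives comprised DESeq2 1.42.0, limma-voom and limma 3.58.1 on log2(FPKM + 1), other scalings and filters, other pseudocounts, and leaving out each library, or AX 6 with NC 1. Those added after the data were seen were the lists without AX 6 or without AX 6 and NC 1, other gene lengths, TMM-scaled CPM for overlap, and the relations to marker sums.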

Additional observations from a re-analysis of the deposited data

Results flagged for a closer look

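In 16 groups of 5 libraries (8 genes, AX and NC), 8 values stood far from the rest of their group. Their gap to the nearest library exceeded 0.71 of the group's range. Chance passes this limit in about 1 in 20 groups of normally distributed values. The CPM values need not be so distributed, and the groups share the same 10 libraries, so that share does not apply directly. Of these 8 values, 5 were AX 6 and 2 were NC 1. AX 6 stood above the other AX libraries for Dusp4 (4.27 CPM, others 0.505 to 1.04), Dusp5 (271 CPM, others 153 to 169), Dusp6 (589 CPM, others 154 to 242), Dusp10 (54.8 CPM, others 4.30 to 8.68) and Dusp14 (12.3 CPM, others 0.783 to 3.43). NC 1 stood above the other NC libraries for Dusp6 (298 CPM, others 156 to 195) and Dusp10 (30.3 CPM, others 2.90 to 6.94). The remaining value was Dusp2 in NC 3 (254 CPM, others 181 to 200.1). AX 6 and NC 1 were also the libraries with the highest mesothelial and stromal sums, whose part in these values was not tested.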

How the results depend on the processing

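No member had an adjusted p under 0.05 in any alternative that gave one; DESeq2 gave none for Dusp10. Unadjusted p under 0.05 arose for Dusp2 without AX 8 (0.0241) and in limma on FPKM (0.0411), Dusp5 without NC 3 (0.0327), Dusp6 without AX 9 (0.038) and Dusp10 without NC 1 (0.0333). Over all genes, 1 was called without NC 3 (Rnf24, log2 fold change -5.75, edgeR adjusted p = 0.0174), so leaving out single libraries gave 0 to 1 calls, and the other alternatives gave 0. Of 148 alternative fold changes of members 142 kept their direction and 6 reversed, those of Dusp1, Dusp4 and Dusp10. Leaving out single libraries moved the log2 fold change of Dusp1 between -0.044 and 0.50, of Dusp4 between -0.45 and 0.80, and of Dusp10 between -0.35 and 1.98. Without AX 6 and NC 1 together it was -0.093 for Dusp1 and -0.29 for Dusp4. Of 104 alternative differences of mean log2(CPM + 0.5), 5 reversed, 3 passed 0.05 and 96 did neither. Leaving out single libraries moved this difference between -0.047 and 0.35 for Dusp1, between -0.58 and -0.36 for Dusp2, between -0.27 and 0.29 for Dusp4, and between 0.17 and 0.42 for Dusp5. The cause was not tested. Genes at an unadjusted p under 0.05 numbered 113 in the main test, 193 in DESeq2, 313 without a filter, 381 without AX 6, 433 without NC 1 and 319 without both. Dusp4 and Dusp14 did not pass the filter of 50 counts or the FPKM minimum, so they have no value there. TMM-scaled CPM gave 17 genes without overlap in place of 12. It gave r = -0.51 for Dusp6 with Dusp16 (adjusted permutation p = 0.241), which did not pass 0.05. No paired analysis was possible because the groups share no replicate numbers. Counts were lowest for Dusp4 (6 to 54) and Dusp14 (8 to 156), but Dusp10 (40 to 693) had the largest SE, 0.86.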

Other observations

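AX 6 differed least from NC 1 of all libraries, although they belong to different groups. The chi-square per degree of freedom of their counts was 71.1, against 186 to 327 between AX 6 and the other libraries. Among 5873 genes with a median of at least 20 CPM in a group, 219 (3.73%) lay at least 8-fold below that median in a library, and of the 5 members at that level none did.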
